A study of Mus musculus with 15 samples.

Results

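A line of NIH3T3 cells that carries mouse Runx3 was compared with cells that carry the empty vector. NIH3T3 is an immortalised line of mouse embryo fibroblasts. The comparison used 4 of the 15 arrays of the series, 2 titled as murine Runx3 and 2 titled as vector control without tamoxifen, and they were chosen by title alone. Both kinds of cells had been transduced with a retrovirus made from pBabe-puro, which in the Runx3 line drove the mouse gene constitutively and in the control held no insert. The other groups used here were the vector cells given 4-hydroxytamoxifen (4-OHT), the lines with mouse Runx1 or mouse Runx2 in the same vector, and cells with RUNX1-ER, a form of human RUNX1 that 4-OHT induces, each with 2 arrays per condition. All cultures were confluent after 7 days, and every sample had received either ethanol (0.2%) or 4-OHT (labelled 0.1 mM) in ethanol for 24 h before the RNA was taken. For each constitutive line the labels leave it unsaid whether that was ethanol or 4-OHT, so the Runx3 line was set against both vector groups. The titles call the paired arrays biological replicates. They do not say how many transductions or clones a line stands for, nor what was repeated between replicates. The p-values therefore measure the spread between replicate arrays, which may not include that between separately made lines.

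Runx proteins bind DNA through their Runt domain, and they bind it more tightly as a complex with CBFβ. Depending on the gene and on the cofactors recruited, a bound Runx protein can activate or repress transcription. Runx3 is known best for its part in T cells, sensory neurons and gut epithelium, and the family shares 1 core binding motif. Fibroblasts are not among the cells in which Runx3 is classically studied.

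The core motif was searched as TGTGGT or TGCGGT on either strand, in the 250 bases upstream of the RefSeq transcription starts (GRCm38.p6). The promoters of 5 genes are shown because their genes were among the largest rises (Anxa8, Timp4) or falls (Ackr3, Ptgs2, Car9) and the motif was present in some and absent in others; capitals mark each match, and each sequence reads 5′ to 3′ on the strand of its gene.
Anxa8, chr14:34085729-34085978, plus strand: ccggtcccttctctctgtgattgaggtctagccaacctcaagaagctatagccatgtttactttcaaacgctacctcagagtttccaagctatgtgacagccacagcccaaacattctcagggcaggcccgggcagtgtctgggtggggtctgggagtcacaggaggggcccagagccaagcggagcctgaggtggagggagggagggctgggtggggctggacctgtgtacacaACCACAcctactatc
Timp4, chr6:115252206-115252455, minus strand: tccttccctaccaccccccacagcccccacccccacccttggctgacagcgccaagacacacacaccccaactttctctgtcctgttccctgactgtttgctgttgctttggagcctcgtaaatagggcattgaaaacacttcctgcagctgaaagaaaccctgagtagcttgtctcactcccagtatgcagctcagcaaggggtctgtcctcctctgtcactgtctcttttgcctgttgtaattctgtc
Ackr3, chr1:90203730-90203979, plus strand: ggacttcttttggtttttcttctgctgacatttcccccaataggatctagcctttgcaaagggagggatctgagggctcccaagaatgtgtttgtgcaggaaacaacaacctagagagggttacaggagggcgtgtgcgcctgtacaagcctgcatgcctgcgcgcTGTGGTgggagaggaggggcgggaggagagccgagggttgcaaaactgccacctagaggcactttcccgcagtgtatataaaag
Ptgs2, chr1:150099781-150100030, plus strand: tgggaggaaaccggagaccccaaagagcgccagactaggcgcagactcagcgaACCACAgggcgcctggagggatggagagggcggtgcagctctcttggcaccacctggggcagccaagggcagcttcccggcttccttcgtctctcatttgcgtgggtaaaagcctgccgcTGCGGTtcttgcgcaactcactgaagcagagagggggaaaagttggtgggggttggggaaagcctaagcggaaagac
Car9, chr4:43506776-43507025, plus strand: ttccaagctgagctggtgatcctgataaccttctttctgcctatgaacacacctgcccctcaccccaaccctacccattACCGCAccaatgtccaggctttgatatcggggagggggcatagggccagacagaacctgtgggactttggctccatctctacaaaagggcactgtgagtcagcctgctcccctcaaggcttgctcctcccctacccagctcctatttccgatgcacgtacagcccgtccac
The match in Anxa8 begins 15 bases upstream of the start and that in Ackr3 84 bases upstream. Ptgs2 held 2 matches, 197 and 77 bases upstream, Car9 held 1 at 171 bases, and the Timp4 window held none. Of the largest rises and falls and the genes furthest from the other lines, promoters were listed for 35, and 7 of these genes held a match. Matches are thus more frequent among the 5 shown than in that set. Over all genes tested, 17.6% of 18109 promoters held a match. Of the promoters of genes higher in the Runx3 line 18.8% of 745 did, and of those of lower genes 15.1% of 1041. TGTGGT alone stood in 12.3% of the higher, 8.74% of the lower and 11.7% of all promoters. For genes at least 2-fold lower it stood in 12.8% of 164 promoters. TGCGGT alone stood in 6.58% of the higher, 6.82% of the lower and 6.51% of all promoters. None of these differences was tested. A match describes letters in a window and does not show binding.

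The arrays did not show the inserted gene. The brighter Runx3 probe set read 4.46 and 3.96 log2 units on the Runx3 arrays and 4.54 and 4.35 on the vector arrays (log2 difference −0.24, adjusted p = 0.447). The other differed by 0.09 (neither was called), and whether either one lies in the insert was not tested. The identity of the line rests on its label. The brightest Runx1 probe set read 9.11 and 9.30 in the Runx1 line, against 4.54 and 4.45 in the Runx3 line and 4.56 and 4.75 in vector cells, so the label of that line showed on the arrays. Of the 5 other Runx1 probe sets 3 were lower in the Runx3 line than in vector cells, by log2 differences of −0.95, −0.90 and −0.62 (limma, adjusted over all probe sets, 0.000453, 0.0228 and 0.0161). Cbfb, the gene of CBFβ, read 9.59 and 9.52 in the Runx3 line and 9.40 and 9.52 in the vector line, a log2 difference of 0.09. Fibroblast identity was visible in both groups, with all 9 fibroblast markers between 7.46 and 13.35 log2 units on the Runx3 arrays and between 7.20 and 13.15 on the vector arrays. The 6 leukocyte markers measured stayed between 3.07 and 4.62 in the Runx3 line and the 4 endothelial markers between 2.94 and 3.85, near the median of a whole array (3.69 to 3.75).

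Many genes separated the Runx3 line from vector cells. With limma, at an adjusted p under 0.05 over 18193 genes (Benjamini-Hochberg), 1705 genes differed (9.37%), 723 of them higher (3.97%) and 982 lower (5.40%). At least 2-fold differences were seen in 107 of the higher and 147 of the lower genes. Of the 8048 brighter genes, those whose mean exceeded 5 log2 units, 18.5% passed, 7.54% higher and 10.9% lower, and lists of genes that fibroblasts express are to be read against those shares as well. Set against the vector arrays with 4-OHT, 2049 genes differed (11.3%), with 1173 higher (6.45%) and 876 lower (4.82%). That excess of higher genes depended on replicate 2 of the vector cells with 4-OHT. Without that array lower genes outnumbered higher ones, while with any other single array of the 2 groups left out the excess remained. With only the groups compared in the fit, 469 genes were higher and 473 lower, and with arrays re-centred on their medians 1032 and 904. Without Runx3 replicate 2 the total was 1281. In all 1384 genes were called against both vector groups with the same sign and 0 with opposite signs. 4-OHT itself gave 0 calls in vector cells with limma (0%), where 1225 genes had an unadjusted p under 0.05. The 2 Runx3 arrays were each other's nearest neighbours (r = 0.995 across probe sets), as were the vector arrays (r = 0.997). Replicate arrays differed with an SD of 0.190 log2 units over genes in the Runx3 line and 0.162 in vector cells. The total of 1705 fell to 936 without vector replicate 1, to 970 without vector replicate 2 and to 1031 without Runx3 replicate 2, and 709 genes were called whichever of the 4 arrays was left out.

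The largest rise was in Ifitm1, which encodes an interferon-induced membrane protein that hinders the entry of viruses. It read 8.38 and 7.72 on the Runx3 arrays and 3.59 and 3.72 on the vector arrays, a difference of 4.39 log2 units (SE 0.20, limma adjusted p = 2.78e-08). The vector readings lie at the array median, so the size is that of the RMA scale only, and cross-hybridisation with its close relatives was not tested. Anxa8, a phospholipid-binding annexin, read 9.15 and 9.26 against 5.43 and 5.43, 13.7-fold higher (adjusted p = 3.92e-08), and its second probe set gave 3.48 log2 units. Timp4, an inhibitor of matrix metalloproteinases, read 8.32 and 8.08 against 4.53 and 4.80, and Ccr7, the receptor that guides lymphocytes to lymph nodes, read 6.81 and 6.71 against 3.47 and 3.33, vector readings below the array median. In each of these genes both Runx3 arrays lay at least 3 log2 units above both vector arrays.

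Enzymes of lipid, steroid and retinoid metabolism followed. Cyp1b1, a cytochrome P450 that oxidises oestrogens and foreign compounds, read 8.84 and 8.83 against 5.65 and 5.76 (8.75-fold, SE 0.09 log2 units, adjusted p = 1.26e-09). Of its other probe sets 1 rose by 2.84 and 1 differed by −0.10. Akr1c14, which reduces steroids as one of the aldo-keto reductases, read 7.50 and 7.02 against 4.26 and 4.20. Rdh10, which turns retinol into retinal, read 8.14 and 8.12 against 5.56 and 5.20. Ugcg, which makes glucosylceramide, read 8.64 and 8.58 against 6.14 and 5.83, and its 3 other probe sets ranged from 0.03 to 2.77. No Runx3 array overlapped a vector array in any of these. Slc40a1, the iron exporter ferroportin, rose 6.18-fold, Elmo1, which helps to activate Rac during migration and engulfment, 5.51-fold, and Cdk18, a cyclin-dependent kinase, 5.22-fold. Sertad4, Tmem268 and Dclk1, a kinase bound to microtubules, rose by 2.11, 2.18 and 2.30 log2 units, and 3 of the 8 other Dclk1 probe sets were called the same way.

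**Figure D1:**
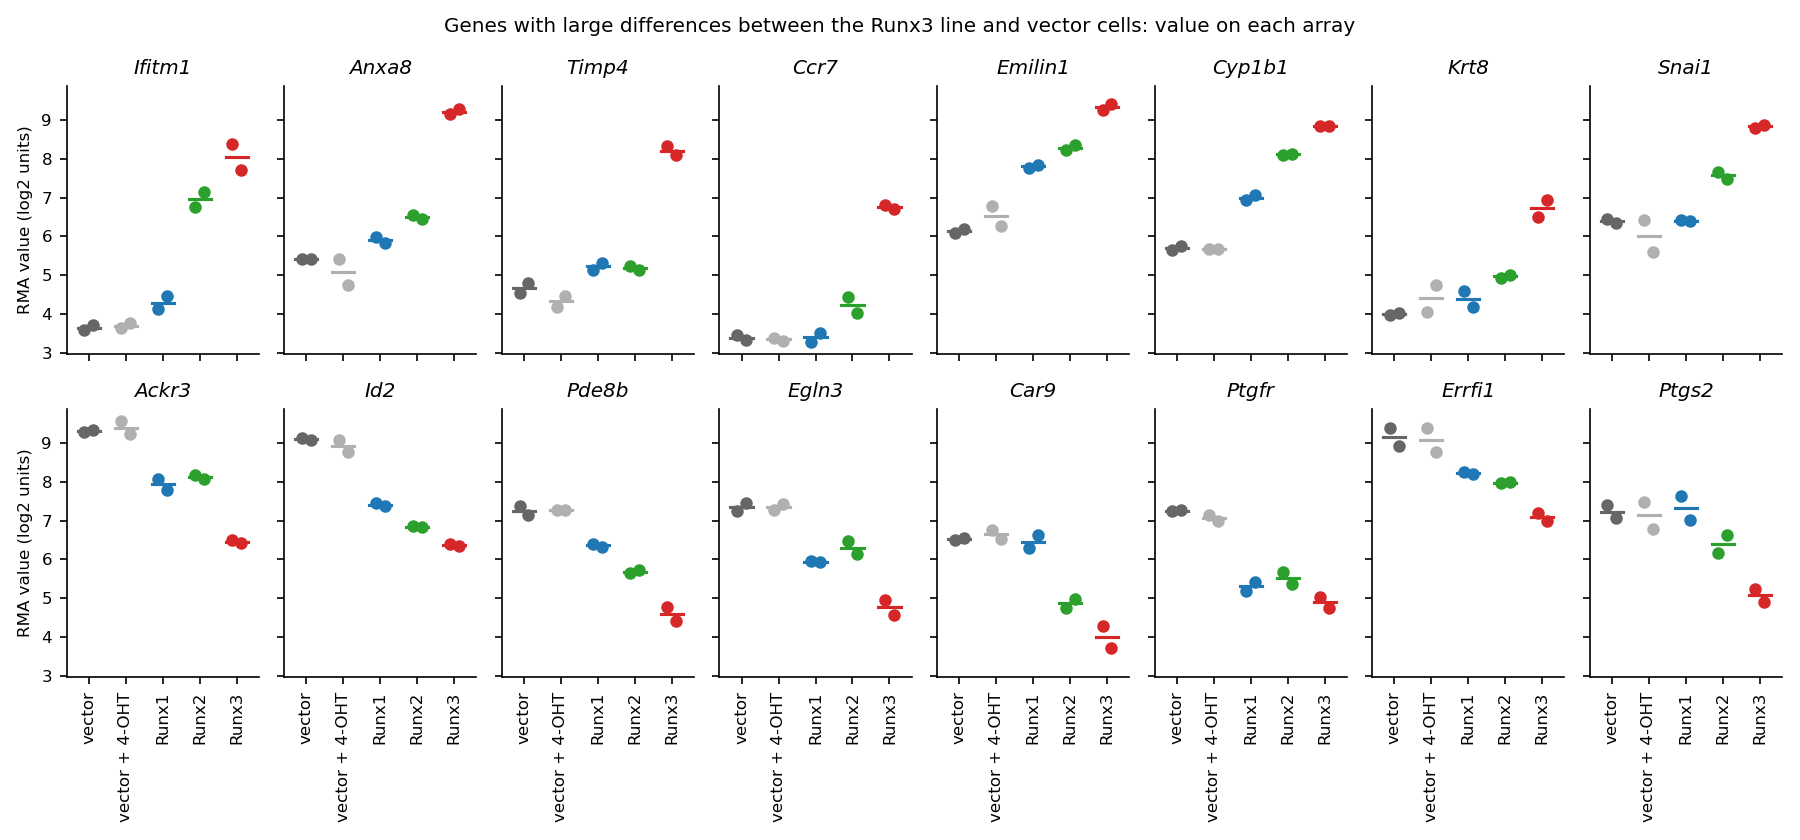
RMA values in log2 units on each array (points, 2 per group) with the group mean (line) for 8 genes higher and 8 lower in the Runx3 line, in vector cells, vector cells with 4-OHT and the 3 mouse Runx lines. In all 16 genes the Runx3 arrays lie beyond all 4 vector arrays, as in Ccr7 at 6.81 and 6.71 against 3.47 and 3.33 in vector cells.

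Ackr3, an atypical receptor that removes the chemokine CXCL12, had the largest fall. It read 6.49 and 6.42 in the Runx3 line against 9.27 and 9.33, 7.21-fold lower (SE 0.12 log2 units, adjusted p = 1.79e-08). Id2, an inhibitor of basic helix-loop-helix transcription factors, read 6.41 and 6.35 against 9.11 and 9.07, and Pde8b, which degrades cyclic AMP, 4.78 and 4.41 against 7.37 and 7.14. The oxygen sensor Egln3 read 4.96 and 4.58 against 7.26 and 7.44, and Car9, a surface carbonic anhydrase, 4.29 and 3.72 against 6.49 and 6.56. Rgs2, which turns off Gq signalling, read 6.43 and 6.48 against 8.91 and 8.98. All arrays of the 2 groups were apart in these genes, by at least 2 log2 units.

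Other large falls concerned surface and signalling proteins. Msln, the cell-surface protein mesothelin, changed by −2.30 log2 units (SE 0.09) and Mrgprf, an orphan G protein-coupled receptor, by −2.26. Cd34 read 7.78 and 7.57 against 9.65 and 9.51. Cebpd, a transcription factor of the C/EBP family, changed by −2.34, although its other probe set changed by only −0.21. Fbln5, an elastic fibre protein, changed by −1.98 on its brightest probe set and by −0.06 on the other. The neuropeptide gene Vip depended on the control, at −2.00 against vector cells and −1.16 against vector cells with 4-OHT (adjusted p = 4.49e-06 and 0.000451). Usp17la and Trim30d, members of families with near-identical copies, changed by −2.63 and −2.05. Nr4a1, an orphan nuclear receptor gene induced within an hour by many stimuli, read 6.84 and 7.09 against 10.39 and 8.71 in vector cells and 10.44 and 8.14 in vector cells with 4-OHT. Its change of −2.59 passed (adjusted p = 0.0119) but the adjusted p was 0.151 without vector replicate 1, 0.0741 without Runx3 replicate 1 and 0.0542 without Runx3 replicate 2.

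Some of these differences also set the Runx3 line apart from the lines with its relatives. Against the Runx1 line 1186 genes differed (6.52%; 434 higher, 2.39%, and 752 lower, 4.13%), and against the Runx2 line 684 did (3.76%; 337 higher, 1.85%, and 347 lower, 1.91%). These totals rest on few arrays, since with any array of the groups left out they were 641 to 802 against Runx1 and 251 to 448 against Runx2. Higher than in vector cells and in both other lines were 188 genes, and lower were 244; these 3 comparisons share the Runx3 arrays. By the smallest of the 3 differences, the leading higher genes were Timp4, Anxa8, Ccr7, Pgbd5, Krt8, Agt, Ccn4, Dclk1, Col5a1 and Snai1. Timp4 exceeded Runx1 and Runx2 cells by 2.97 and 3.01 log2 units, Anxa8 by 3.30 and 2.71, and Krt8, a keratin of simple epithelia, by 2.33 and 1.75. Agt, the precursor of angiotensin, read 6.62 and 6.66 in the Runx3 line and 4.53 and 4.86 in vector cells.

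The leading lower genes by the same measure were Mrgprf, Ackr3, Ptgs2, Usp17la, Cpq, Ifi27l2a, Tm7sf2, Msln, Egln3 and Pde8b. Ackr3 was lower than in the Runx1 and Runx2 lines by log2 differences of −1.47 and −1.67, and Ptgs2, the inducible cyclooxygenase, by −2.25 and −1.31 (adjusted p = 8.09e-05 and 0.00866). Ptgs2 read 5.24 and 4.91 in the Runx3 line, 7.40 and 7.06 in vector cells and a mean of 7.32 in the Runx1 line. Ifi27l2a, an interferon-inducible gene, read 7.71 and 7.46 against 9.18 and 9.10. The 2 other probe sets of Cpq, a carboxypeptidase, changed by −0.22 and 0.11 and were not called.

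Across 46 gene lists, the groups with the largest shares of called members were sterol and fatty acid synthesis (21 of 30), hypoxia and glycolysis (20 of 33) and the feedback inhibitors of ERK (10 of 19). Nearly all of those calls were falls. Immediate early genes (11 of 23), collagens with their processing enzymes (18 of 36) and fibroblast markers (7 of 14) also had far more calls than the 9.37% of all genes or the 18.5% of brighter ones. Higher and lower members were about equally frequent among the collagens (8 and 10) and among metalloproteinases with their inhibitors (4 and 4). Rises outnumbered falls among interferon-stimulated genes (8 and 1 of 33) and matricellular proteins (5 and 2 of 19).

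**Figure D2:**
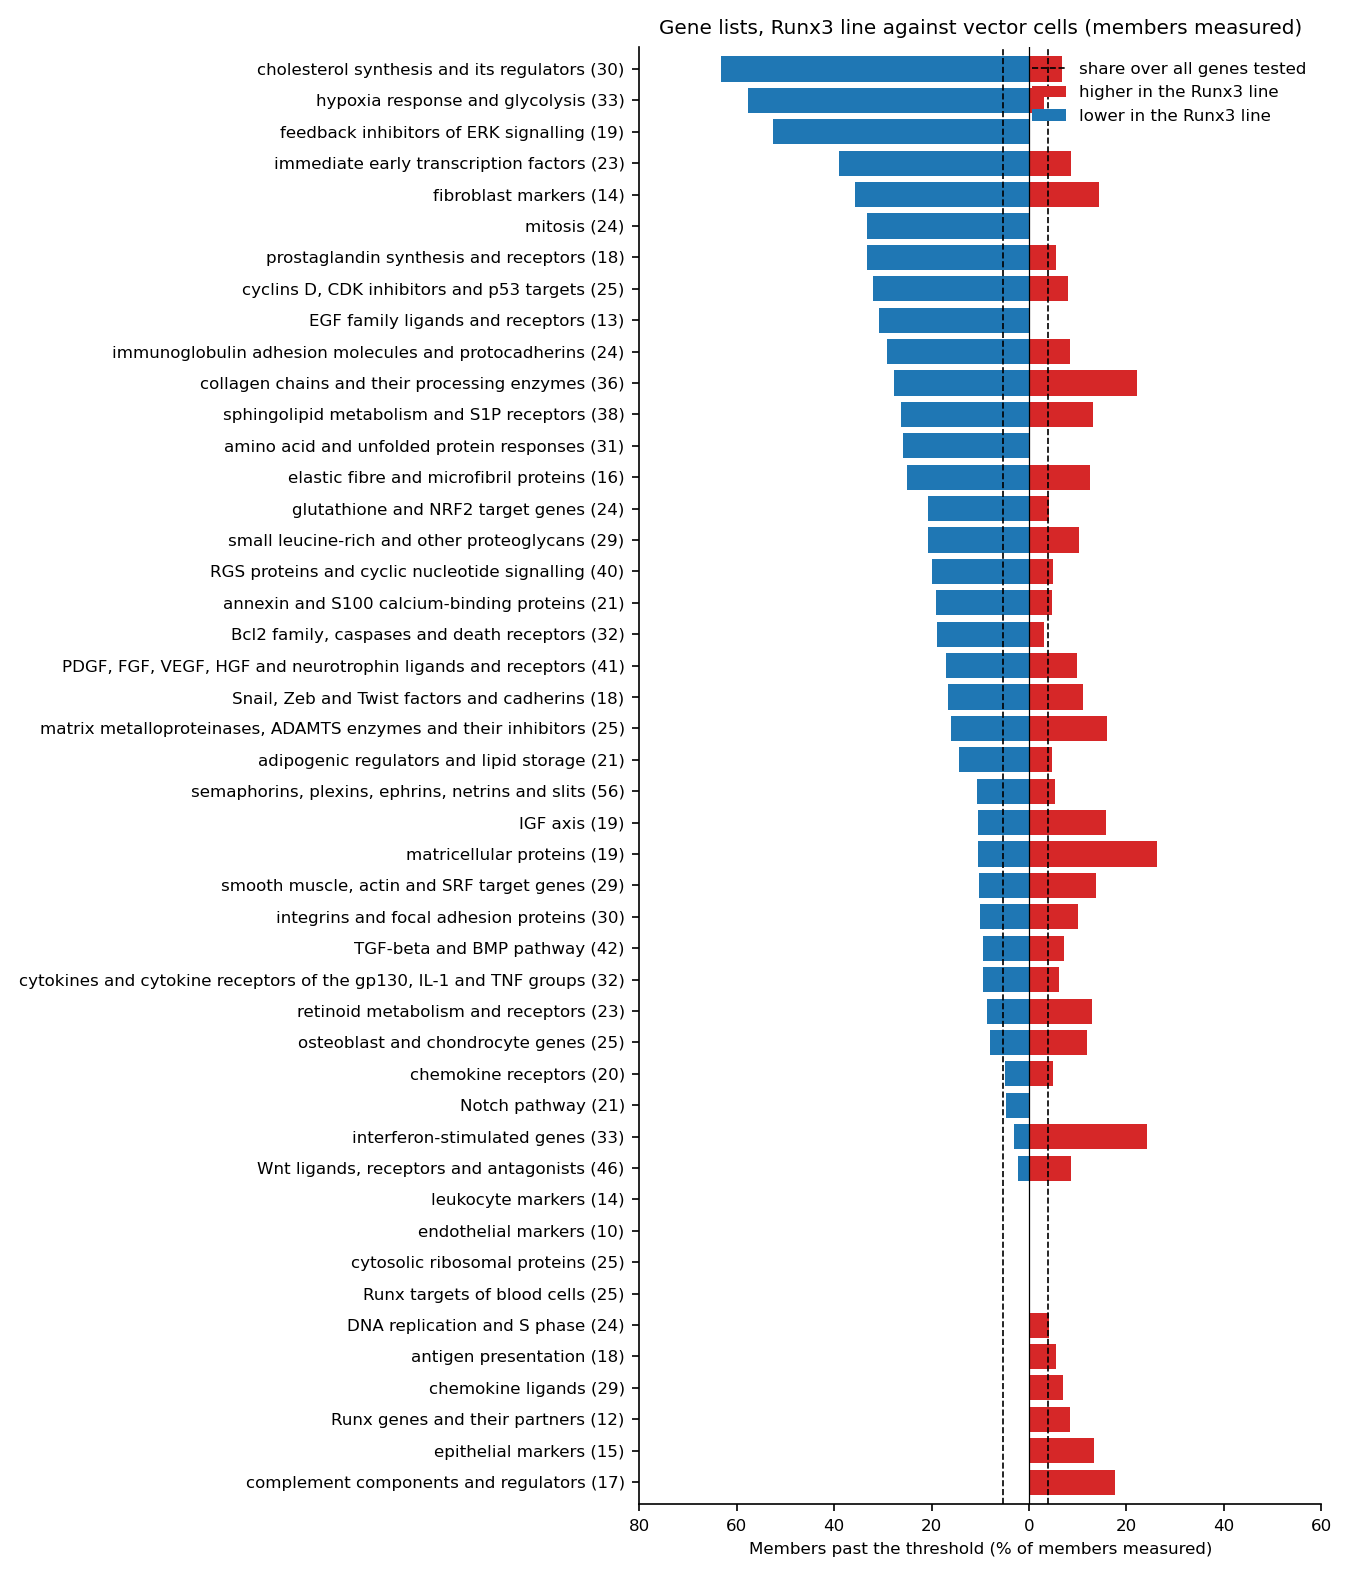
Share of measured members (number in brackets) that were higher (right, red) or lower (left, blue) in the Runx3 line than in vector cells for 46 gene lists, with dashed lines at the shares over all genes tested (3.97% higher, 5.40% lower). Sterol synthesis, hypoxia with glycolysis and ERK feedback reach 63.3%, 57.6% and 52.6% lower.

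All called feedback inhibitors of the ERK pathway fell. ERK signalling induces these genes, and their products in turn dampen it at the receptor, at Ras and Raf or at ERK itself. Of 19 measured members 10 fell and 0 rose, with a median log2 difference of −0.43 (0.00 over all genes). The call of Dusp10 was lost with any array left out and that of Spry1 without Runx3 replicate 2 or either vector array. With an array left out their differences ran from −0.59 to −0.89 and from −0.24 to −0.53. Lrig1 lost its call without Runx3 replicate 2 or vector replicate 1, with differences from −0.39 to −0.47. Phlda1 read 4.16 and 4.54 in the Runx3 line and 6.75 and 6.45 in vector cells. Errfi1, which blocks the kinase domain of EGF receptors, read 7.19 and 6.98 against 9.37 and 8.91 and fell on both of its probe sets. The phosphatase gene Dusp1 read 6.37 and 6.43 against 7.70 and 8.04, and Dusp6, which is specific to ERK, 6.71 and 6.52 against 7.42 and 7.60. Spry2 and Spred2, which act between receptor and Raf, changed by −0.96 and −0.99. For Phlda1, Errfi1, Dusp1, Dusp6, Spry2 and Spred2 both Runx3 arrays lay below all 4 vector arrays. Measured directly against the Runx1 line 11 members were lower, among them Dusp1 at −1.92 and Dusp6 at −1.15, and against the Runx2 line 4 were.

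Ligands and receptors of the EGF family showed 4 falls and 0 rises among 13. Lower were thus 30.8%, beside 5.40% of all genes and 10.9% of brighter ones. Erbb3 read 5.47 and 5.51 against 6.66 and 6.46, and Nrg1, a ligand of ErbB3, 5.05 and 5.02 against 5.93 and 5.68. Hbegf changed by −0.77, with an adjusted p of 0.0537 once vector replicate 1 was left out. Ereg changed by −0.82, from readings of 3.77 and 3.54 that lay close to the array median. Egfr and Erbb2 differed by −0.08 and 0.03 and did not pass.

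Immediate early transcription factors split by gene. Jun, Fosl1 and Fosl2, subunits of AP-1, read 6.81 and 6.79, 6.48 and 6.60, and 8.61 and 8.62 in the Runx3 line, against 8.49 and 8.29, 7.95 and 7.96, and 9.53 and 9.40 in vector cells. Junb, another subunit, went the other way, at 7.24 and 7.39 against 5.92 and 5.50 (log2 difference 1.61, SE 0.19), and Myc rose by 0.85. Maff, a small partner of bZIP factors, and Klf4, a zinc finger factor, changed by −1.50 and −1.06. In all 9 of 23 members fell and 2 rose, and without Runx3 replicate 1 it was 5 and 2. Replicates of vector cells differed in this list: Egr1 read 10.01 and 9.36, Egr2 6.81 and 5.90, and with 4-OHT Egr1 read 9.79 and 8.88. Egr1 changed by −1.28 (adjusted p = 0.00466), but with vector replicate 1 left out the adjusted p was 0.0720, and with Runx3 replicate 1 left out 0.0502. Fos itself read 3.91 and 3.57 against 3.97 and 3.82 and was not called.

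Genes of prostaglandin synthesis were lower at several steps. Pla2g4a, which frees arachidonic acid from membranes, read 8.15 and 8.36 against 9.18 and 9.09. Downstream of Ptgs2, Ptges and Ptgis, which make PGE2 and prostacyclin, changed by −0.87 and −0.94 (adjusted p = 0.000333 and 2.09e-05). The receptor gene Ptgfr read 5.04 and 4.76 against 7.23 and 7.28, and all 4 of its other probe sets fell. Ptger4, the EP4 receptor of PGE2, was the only member of 18 that rose, at 7.71 and 7.57 against 6.99 and 6.55. Its call was lost without vector replicate 2 (adjusted p = 0.0950) and without Runx3 replicate 1 (0.0564). In all 6 members fell, among them the transporter Slco2a1 at −0.62, whose call was lost with any array left out.

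Regulators of G protein and cyclic nucleotide signalling included some of the deepest falls. Besides Pde8b, Rgs2 and Vip, Pde4b read 5.50 and 5.55 against 7.36 and 7.24, and the adenylyl cyclase gene Adcy7 4.84 and 4.66 against 5.69 and 5.53. Of 40 measured members 8 fell and 2 rose, Pde8a by 0.51 and Prkar1a by 0.35. The call of Prkar1a was lost with any array left out and that of Pde8a without vector replicate 1 (adjusted p = 0.0724). The 5 other Pde4b probe sets ranged from −1.51 to 0.10, and 1 of them was called.

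Most glycolytic and hypoxia-response genes fell. HIF factors, which prolyl hydroxylases mark for degradation when oxygen is present, drive many of them. Of 33 members 19 fell and 1 rose, with a median log2 difference of −0.46. The rise was in Ddit4, an inhibitor of mTOR, by 0.62, and its call was lost when vector replicate 1 (adjusted p = 0.145) or either Runx3 array (0.0715 and 0.0562) was left out. The glucose transporter gene Slc2a1 read 9.69 and 9.73 in the Runx3 line and 11.11 and 11.22 in vector cells. Bnip3, a mitochondrial protein of mitophagy, read 9.94 and 9.80 against 10.93 and 11.14, and Pdk1, which keeps pyruvate out of mitochondria, 8.74 and 8.59 against 9.75 and 9.78. Enzymes along the pathway had smaller falls, with Pfkl at −0.69, Pfkp at −0.67, Aldoa at −0.55, Tpi1 at −0.48, Pgk1 and Pkm at −0.46 and Pgam1 at −0.37. Of these, Pgam1 lost its call with any array left out, Pfkp, Tpi1 and Pgk1 without Runx3 replicate 2 or vector replicate 2, and Pkm without vector replicate 2. Eno2, the neuronal enolase, changed by −1.96. Ldha differed by −0.33 (adjusted p = 0.0643), Hif1a by −0.28 (0.0906) and Vegfa by 0.08, and none of these passed. Compared with the Runx1 line 17 members were lower and 2 higher (median −0.39), and compared with the Runx2 line 3 were lower and 2 higher (median −0.07).

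Genes of cholesterol synthesis were lower at most measured steps from acetyl units to sterols. The pathway runs from acetyl-CoA through mevalonate and squalene to lanosterol and cholesterol, and SREBP2 induces its genes when sterols run low. Of 30 members of the list, which also holds fatty acid genes, 19 fell and 2 rose (median −0.47). Hmgcs1 and Mvk, early in the mevalonate part, changed by −0.43 and −0.33 (Mvk was not called with any array left out, nor Hmgcs1 without vector replicate 1), and Pmvk read 6.04 and 6.08 against 7.00 and 7.00. Fdps, Fdft1 and Sqle, which build squalene and oxidise it, changed by −0.67, −0.70 and −0.66. Among the enzymes after lanosterol, Tm7sf2 read 5.46 and 5.59 against 7.13 and 7.11, Msmo1 9.59 and 9.74 against 10.61 and 10.51, and Nsdhl 9.06 and 9.09 against 9.88 and 9.87. Ebp, a late isomerase, changed by 0.28, a call lost with any of the 4 arrays left out, and Scap, which escorts SREBP to the Golgi, rose by 0.57. Of the fatty acid genes Acly and Scd1 fell, the call of Scd1 being lost with any array left out and that of Acly without vector replicate 1, while Fasn, Acaca, Scd2, Fads1, Fads2 and Elovl6 did not pass the threshold. Srebf2, the gene of SREBP2, differed by 0.05 and was not called. Set directly against the relatives, the list had 20 members lower and 0 higher against Runx1 (median −0.58) and 17 lower and 0 higher against Runx2 (median −0.48). No test set the 2 lists against each other.

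**Figure D3:**
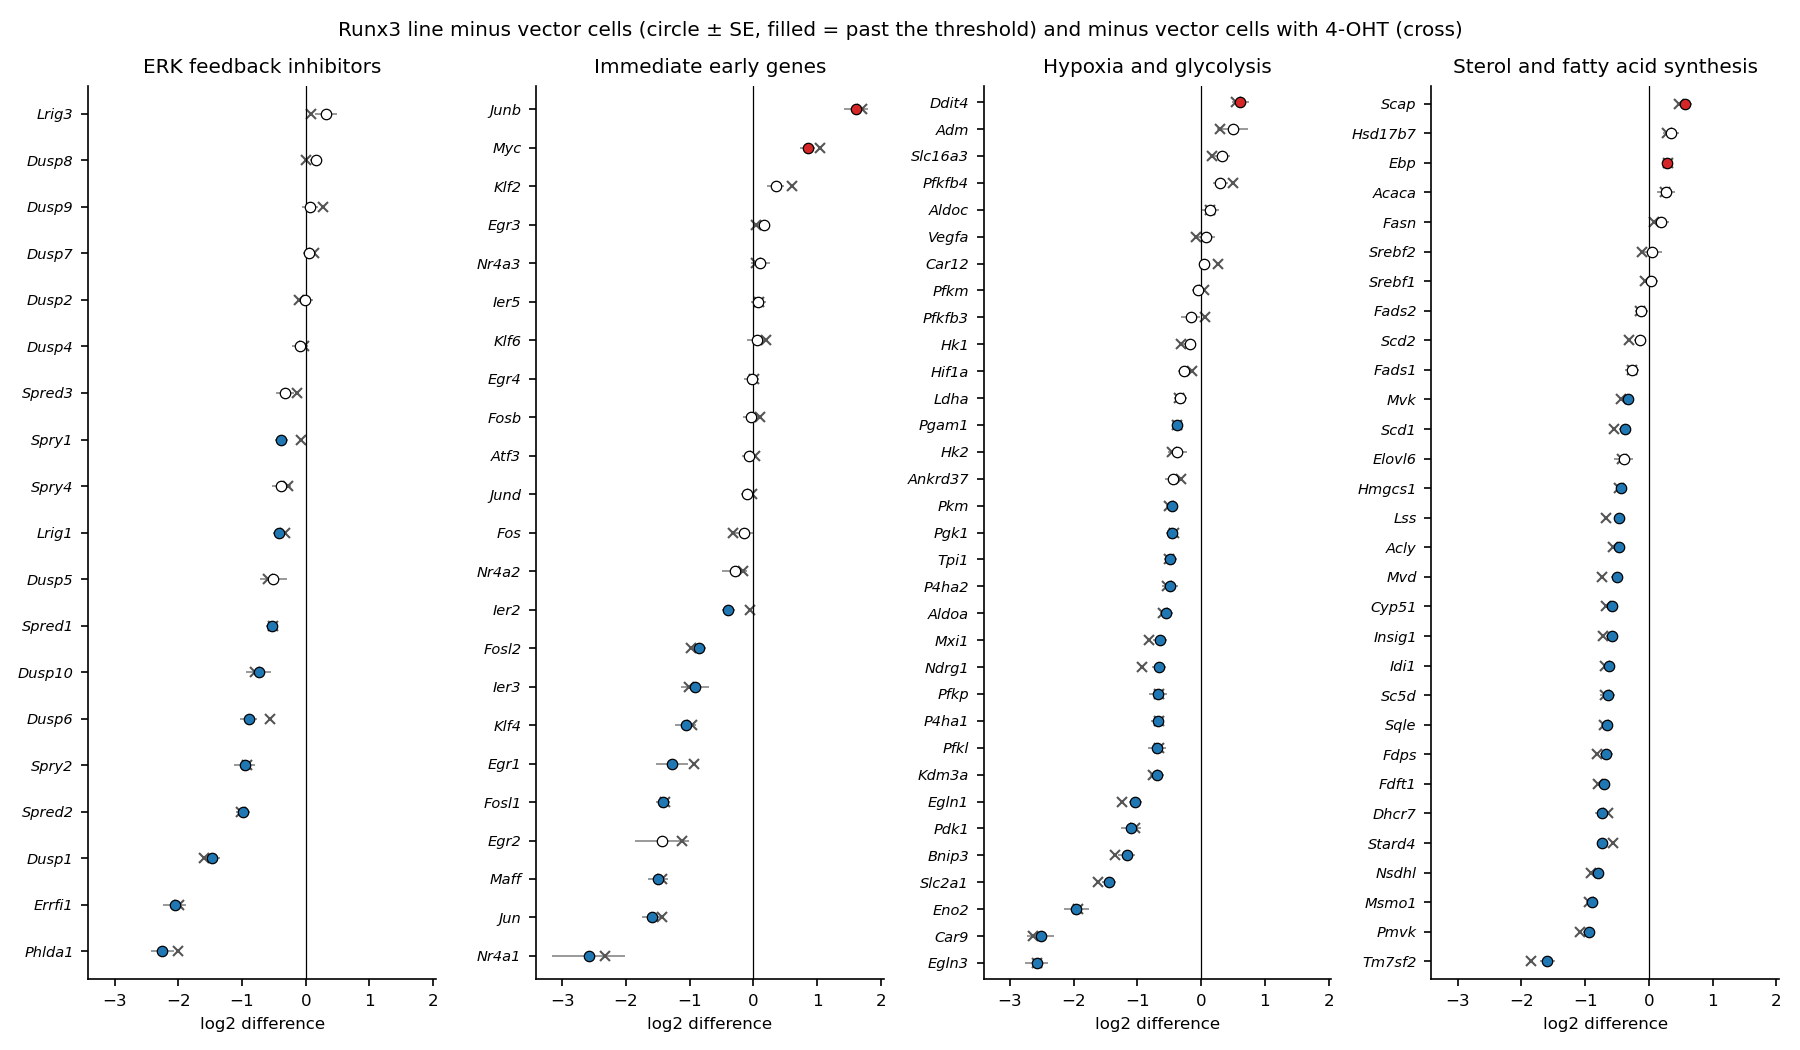
Log2 difference of the Runx3 line from vector cells (circle, bar ± SE) and from vector cells with 4-OHT (cross) for members of 4 lists; filled circles passed the adjusted threshold of 0.05 (red higher, blue lower). Falls run from −0.37 in Pgam1 to −2.58 in Egln3 for hypoxia and glycolysis, while Junb at 1.61 is the largest rise.

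Genes of the extracellular matrix changed in both directions. Several fibrillar and beaded-filament collagen genes rose, with Col5a1 at 11.42 and 11.63 in the Runx3 line and 9.15 and 9.33 in vector cells, Col1a1 at 12.15 and 12.40 against 11.44 and 11.41, and Col6a1 and Col6a2 higher by 0.93 and 1.09. Col18a1, a basement membrane collagen, read 7.26 and 7.25 against 5.87 and 5.99. The chains of type IV collagen, the main network of basement membranes, fell, with Col4a1 at 6.88 and 7.14 against 8.28 and 8.03 and Col4a2 at 6.26 and 6.46 against 7.76 and 7.58. Col8a1 changed by −1.60. Col3a1, also fibrillar, changed by −0.50, with an adjusted p of 0.0727 once vector replicate 1 was left out, and Col6a3 by −0.57, a call lost with any of the 4 arrays left out. Modifying enzymes that hydroxylate collagen were lower: Plod1 by −1.02, Plod2 by −1.05, P4ha1 by −0.68. P4ha1 stands in the hypoxia list too. All the rises named here except Col1a1 were also higher than in the Runx1 and the Runx2 line, by 2.28 and 1.39 for Col5a1; Col1a1 exceeded Runx1 by 0.74 and Runx2 by 0.43 (adjusted p = 0.0725).

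Elastic fibre proteins and matricellular proteins likewise moved both ways. Emilin1, a glycoprotein of elastic fibres, read 9.24 and 9.42 against 6.09 and 6.19, and Mfap5, a microfibril protein, 8.49 and 8.31 against 6.10 and 6.12. Efemp1, Emilin2 and Ltbp3 changed by −1.21, −1.20 and −0.59. Tnc, tenascin C, read 6.75 and 6.95 against 4.81 and 4.69, with its other probe set at −0.01. The secreted CCN proteins Ccn4, Ccn5 and Ccn2 rose by 1.71, 1.49 and 1.19, and Postn, periostin, by 1.22. Thbs2, an inhibitor of blood vessel growth, read 7.90 and 7.89 against 9.20 and 9.26. Ccn5 was higher than in the Runx1 line by 1.35, whereas against Runx2 the difference was −0.57 (adjusted p = 0.217).

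Among metalloproteinases and their inhibitors, the Timp genes divided. Timp4 and Timp1 rose, Timp1 by 0.46, while Timp2 read 10.27 and 10.28 against 11.19 and 11.25 and Timp3 7.67 and 7.77 against 8.72 and 8.72. The aggrecanase genes did so too: Adamts4 read 6.72 and 6.63 against 4.69 and 4.78, with its other probe set at 0.47, and Adamts5 9.39 and 9.36 against 10.13 and 10.15. Reck, a membrane-anchored inhibitor, changed by −0.92, and Mmp2 rose by 0.59.

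**Figure D4:**
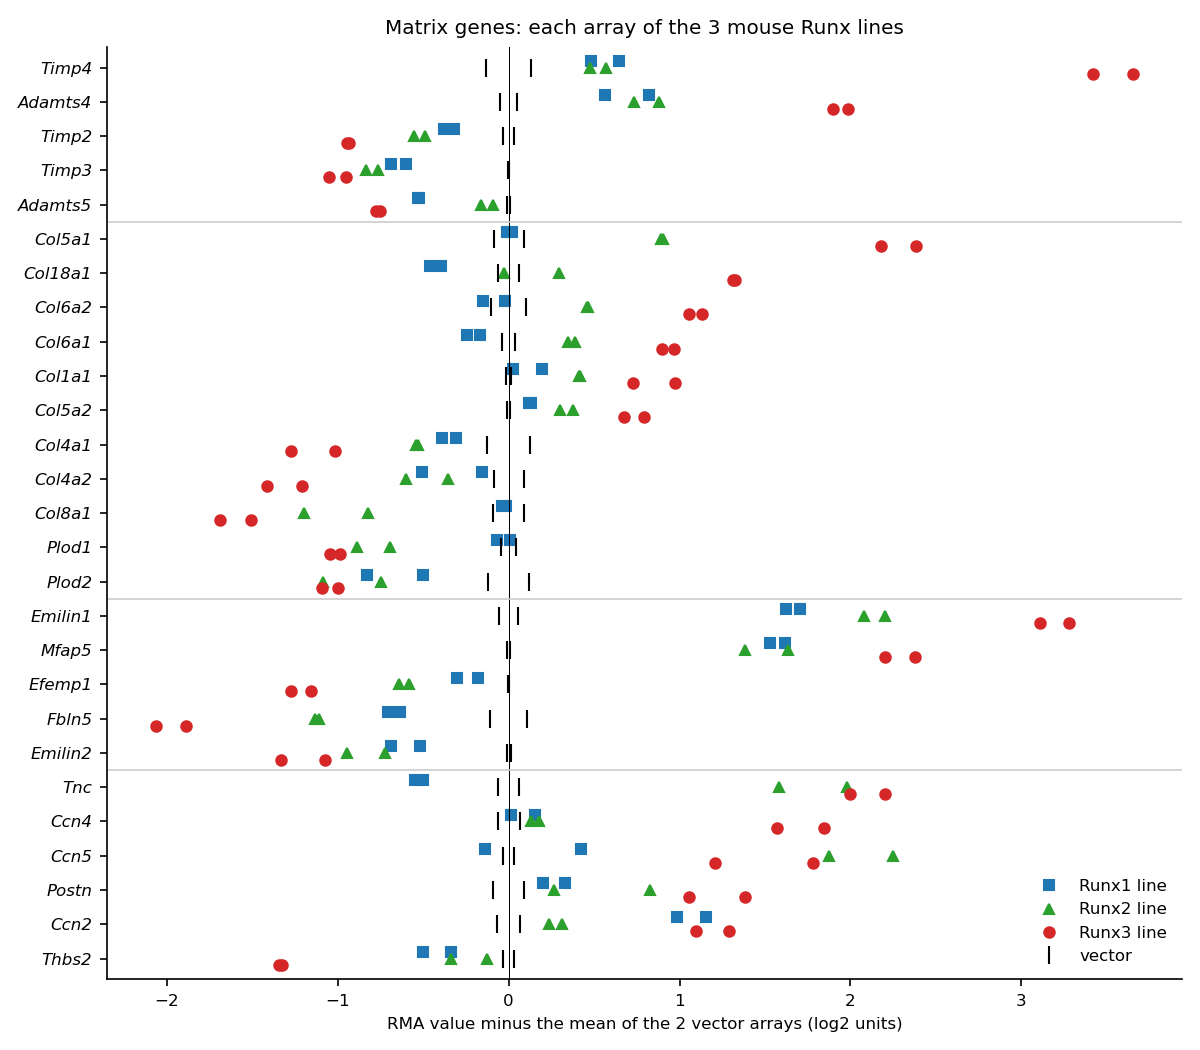
RMA value on each array of the Runx1 (square), Runx2 (triangle) and Runx3 (circle) lines and of vector cells (tick), minus the mean of the 2 vector arrays, for proteases and inhibitors, collagens with their enzymes, elastic fibre genes and matricellular genes, from top to bottom. Timp4 stands furthest to the right, at 8.32 and 8.08 against 4.53 and 4.80 in vector cells, and Fbln5 furthest to the left.

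Adhesion genes moved in both directions. Of 24 immunoglobulin-type adhesion molecules and protocadherins 7 fell and 2 rose. Alcam read 5.38 and 5.79 against 7.11 and 6.69, Cd47, the signal that restrains phagocytes, 7.69 and 7.59 against 8.49 and 8.45, and Pcdh19 8.27 and 8.25 against 9.15 and 9.33. Ncam1 rose, at 9.66 and 9.64 against 7.81 and 7.92, with 3 of its 6 other probe sets called the same way. The integrin genes Itgb5 and Itga6 changed in opposite directions, by 1.41 and −1.54. Sdc1, a heparan sulphate proteoglycan that binds growth factors, read 9.72 and 9.82 against 8.37 and 8.37. Sdc4, its relative, changed by −1.11, and the small leucine-rich proteoglycans Dcn and Aspn by −1.02 and −1.64.

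Fibroblast and epithelial markers gave an uneven picture. Of 14 fibroblast genes 5 fell, including Cd34, Pdgfra (9.80 and 9.71 against 11.15 and 11.12) and Thy1 (7.52 and 7.46 against 8.94 and 8.46), and 2 rose, Pdgfrb by 0.89 and Col1a1. Of 15 epithelial genes, Krt8 rose on all 3 of its probe sets, of which 2 are of a type that can cross-hybridise, at 6.50 and 6.94 against 3.98 and 4.03. Cdh1, E-cadherin, read 4.42 and 4.01 against 2.93 and 2.81, readings at or below the array median in vector cells. Epcam read 5.00 and 5.00 against 5.00 and 4.94, and Krt18, the usual partner of Krt8, 3.67 and 3.62 against 3.54 and 3.54; neither was called. Snai1, a zinc finger repressor of Cdh1, read 8.78 and 8.88 against 6.46 and 6.35, while its relative Snai2 changed by −0.64 and Twist2 by −0.86. The call of Snai2 was lost without vector replicate 2 (adjusted p = 0.0896) and without Runx3 replicate 2 (0.0839). Of the annexins and S100 proteins measured (21), Anxa8 was the only rise, and Anxa2, Anxa3, Anxa5 and S100a6 changed by −0.36 to −0.49. Anxa2 lost its call without Runx3 replicate 2 or vector replicate 2, and S100a6 without vector replicate 1.

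Few chemokine genes were bright or called, and the calls among interferon-stimulated genes were mostly rises. Ccl2 and Ccl7, attractants of monocytes, read 8.74 and 8.67 and 7.83 and 7.71 in the Runx3 line, against 6.71 and 6.87 and 6.06 and 6.05, and no other ligand of 29 was called. Ccr7 and Ackr3, with their opposite changes, were the only receptors of 20 called. Il18, a cytokine of the IL-1 family, read 8.08 and 8.10 against 6.71 and 6.68. Among 33 interferon-stimulated genes, Ifitm1 and Ifitm3 (12.04 and 11.93 against 10.76 and 10.70) rose most, followed by Ifi35 at 0.89. The median of the list was 0.01, Ifit2 changed by −0.62, and of 9 calls 5 were made when Runx3 replicate 1, vector replicate 1 or vector replicate 2 was left out. Masp1, a protease that starts the lectin pathway of complement, read 7.73 and 7.71 against 6.29 and 6.15, and 2 more of 17 complement genes rose.

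Ligands and receptors of growth factors moved in both directions. Pdgfra and Pdgfrb changed in opposite directions, as given above, and Pdgfc rose by 0.68. Kitl, the ligand of Kit, read 7.26 and 7.32 against 8.71 and 8.72, and Vegfd 5.12 and 5.31 against 6.44 and 6.56. In this list 7 of 41 fell and 4 rose, and without vector replicate 1 it was 4 and 3. Of 32 cytokines and receptors 2 rose and 3 fell, or 15.6%, and of 42 TGF-β and BMP genes 3 rose and 4 fell, or 16.7%. Both shares lay above the 9.37% of all genes. Among members with a mean above 5 log2 units, 1 of 10 cytokines and receptors rose and 3 fell. Of the 24 such TGF-β and BMP genes 3 rose and 3 fell, beside 18.5% called among all brighter genes. In the TGF-β family Tgfb1 rose by 1.14 on 1 probe set with the other at 0.00, its receptor gene Tgfbr2 read 9.41 and 9.46 against 8.52 and 8.46, and the co-receptor gene Tgfbr3 8.53 and 8.69 against 9.74 and 9.74. Id2 and Id3 fell, with Id3 at 7.21 and 7.53 against 8.82 and 8.71. Id4 read 3.25 and 3.11 against 4.04 and 4.31, a call lost without Runx3 replicate 2 or vector replicate 2. Of 46 Wnt genes 4 rose and 1 fell (10.9%), with 2 calls left without Runx3 replicate 2 or without either vector array. The Wnt receptor gene Fzd7 rose by 1.21 on its brightest probe set (−0.07 on the other). Fzd4 changed by −0.77, with an adjusted p of 0.114 without Runx3 replicate 2 and 0.122 without vector replicate 2. Rbpj, the DNA-binding effector of Notch, was the only called Notch gene of 21, at 8.40 and 8.36 against 9.19 and 9.19.

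Sphingolipid and retinoid genes were called in both directions. The called shares were 39.5% and 21.7%, beside 9.37% of all genes and 18.5% of brighter ones. Besides Ugcg, St3gal5, which makes the ganglioside GM3 from lactosylceramide, read 8.19 and 8.18 against 7.06 and 7.06. Plpp1 and Plpp3, phosphatases of lipid phosphates, changed by 1.35 and −1.61, and Sgpp1, a phosphatase of sphingosine 1-phosphate, by −1.59. In all 5 of 38 members rose and 10 fell, or 3 and 6 without vector replicate 1. Of 23 retinoid genes Rdh10, Cyp26b1 and Dhrs3 rose, while Crabp1, a carrier of retinoic acid, read 9.33 and 9.16 against 10.70 and 10.48 and Rxra changed by −0.74. Leaving out vector replicate 1 gave 2 calls in place of 5, and leaving out vector replicate 2 or Runx3 replicate 1 gave 3. Cyp26b1 was not called with any array left out, nor Dhrs3 without Runx3 replicate 2 or either vector array. Rxra lost its call without Runx3 replicate 1 or vector replicate 1.

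A minority of the genes of mitosis fell. Of 24 measured 8 fell and 0 rose, with a median of −0.27. Lower were thus 33.3%, beside 5.40% of all genes and 10.9% of brighter ones. Ube2c, which serves the anaphase-promoting complex, read 9.48 and 9.43 against 10.09 and 10.08, Nusap1 7.34 and 7.07 against 7.89 and 7.90, and Mki67, the antigen Ki-67, 8.40 and 8.56 against 8.95 and 8.93. The Mki67 call was lost without Runx3 replicate 1 or either vector array. The count was 4 without Runx3 replicate 1, 4 without vector replicate 1 and 5 without vector replicate 2. Set directly against the Runx1 and the Runx2 line, 17 and 12 of the 24 were lower and 0 higher. In the list of DNA replication genes 1 of 24 rose, Fen1, with a median of 0.01. Ccnd2 and Ccnd3, D cyclins of entry into the cell cycle, changed by −0.68 and −0.73, but the inhibitor genes Cdkn2c, Cdkn2d and Cdkn1b fell as well, with changes of −0.58, −0.50 and −0.56, the last lost with any of the 4 arrays left out. Bcl2, which protects from apoptosis, rose by 1.21 on its brightest probe set, and its 4 other probe sets were not called (−0.10 to 0.28). Mcl1, another protector, changed by −0.54 and was not called without vector replicate 1 (adjusted p = 0.0605).

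Stress-response genes under ATF4 showed 8 falls and 0 rises among 31, or 25.8% lower, beside 5.40% of all genes and 10.9% of brighter ones. Fewer calls remained when any of the 4 arrays was left out. Trib3, a pseudokinase, read 6.78 and 6.97 against 7.99 and 7.96. Atf5, a transcription factor of the same response, changed by −0.77 and Hsp90b1, a chaperone of the endoplasmic reticulum, by −0.49. Trib3 and Chac1 were lower than in the Runx1 line by log2 differences of −2.13 and −2.69. Against vector cells Chac1 changed by −0.85, a call lost without vector replicate 1 or either Runx3 array. Antioxidant genes gave 5 falls, led by Sod3 at −1.41, and 1 rise, Gsta4, which read 10.83 and 10.84 against 9.62 and 9.53. Without vector replicate 1 that list had 3 calls.

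Several lists had few or no calls, and several others had calls in both directions. Targets of Runx factors in blood cells (25 measured), leukocyte markers (14), endothelial markers (10) and cytosolic ribosomal proteins (25) had 0 calls with limma, and 1, 2, 0 and 0 of their genes had an unadjusted p under 0.05. Means above 5 log2 units were found for 1, 0, 1 and 24 of their genes. The first 3 lists were thus mostly too dim for their lack of calls to show whether they respond. Antigen presentation had 1 of 18, and Notch 1 of 21. Contractile and SRF target genes had 4 rises and 3 falls of 29, with Tpm1 at 11.07 and 11.10 against 10.03 and 10.06 and Acta2, smooth muscle actin, higher by 0.70. Osteoblast and chondrocyte genes had 3 rises (Mgp, Sox9 and Alpl, the last not called without Runx3 replicate 1 or vector replicate 2) and 2 falls of 25, the IGF axis 3 and 2 of 19, integrins and focal adhesion proteins 3 and 3 of 30, guidance genes 3 and 6 of 56, adipogenic genes 1 and 3 of 21 with Dlk1 at −1.23, and apoptosis genes 1 and 6 of 32. From contractile to apoptosis genes, the called shares ran from 16.1% in guidance genes to 26.3% in the IGF axis. Those of all genes and of brighter ones were 9.37% and 18.5%. Some of the counts rest on single arrays. Contractile genes had 4 calls and integrins 3 without vector replicate 1, guidance genes 5 without Runx3 replicate 1, and apoptosis genes 4 without vector replicate 2 or without Runx3 replicate 2. The single calls of antigen presentation and of DNA replication were lost with any array left out.

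Cells with RUNX1-ER gave a view on other arrays, since induced and uninduced RUNX1-ER cells share none with the Runx3 comparison. Induction changed 349 genes (1.92%; 183 higher, or 1.01%, and 166 lower, or 0.912%), with 4-OHT present in the induced cells only. Of the 723 genes higher in the Runx3 line 109 (15.1%) were also higher on induction and 0 were lower, and of the 982 lower genes 139 (14.2%) were also lower and 6 (0.611%) higher. Seen from the other side, 59.6% of the genes that induction raised were higher in the Runx3 line, and 83.7% of those it lowered were lower there. The median induction was 0.18 log2 units over the higher genes and −0.21 over the lower ones, beside 0.02 over all genes. Akr1c14, Anxa8, Snai1, Timp4 and Rdh10 rose on induction by 2.92, 2.60, 2.57, 2.27 and 2.23 log2 units, and Vip, Dusp1, Car9 and Mrgprf changed by −1.36, −1.27, −1.20 and −1.18. Anxa8, Snai1, Timp4 and Mrgprf are among the genes named above as furthest from the Runx1 and Runx2 lines. Of the other lower genes named there, Pde8b, Cpq, Egln3, Usp17la and Msln also fell on induction, by −1.04, −0.97, −0.79, −0.72 and −0.69. Ptgs2, Ifi27l2a and Tm7sf2 were not called on induction. Ifitm1 differed by 0.43 on induction (adjusted p = 0.430), Krt8 by 0.65 (0.155), Dclk1 by −0.24 (0.400) and Ackr3 by −0.10 (0.838), and these were not called. In 6 genes called in both comparisons the directions were opposite. Acsl3, Calcrl, Cdkn2c, Sned1, Ehd2 and Twf2 were lower in the Runx3 line and higher on induction, and they were singled out after their values were seen. In the Runx3 comparison the calls of Calcrl, Sned1, Ehd2 and Twf2 were lost with at least 1 array left out. Cdkn2c, an inhibitor of CDK4 and CDK6, read 8.64 and 8.48 in the Runx3 line against 9.13 and 9.14 in vector cells, and 9.79 and 9.87 in induced against 9.08 and 9.08 in uninduced cells. Acsl3, which activates fatty acids, changed by −0.81 and by 0.62.

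**Figure D5:**
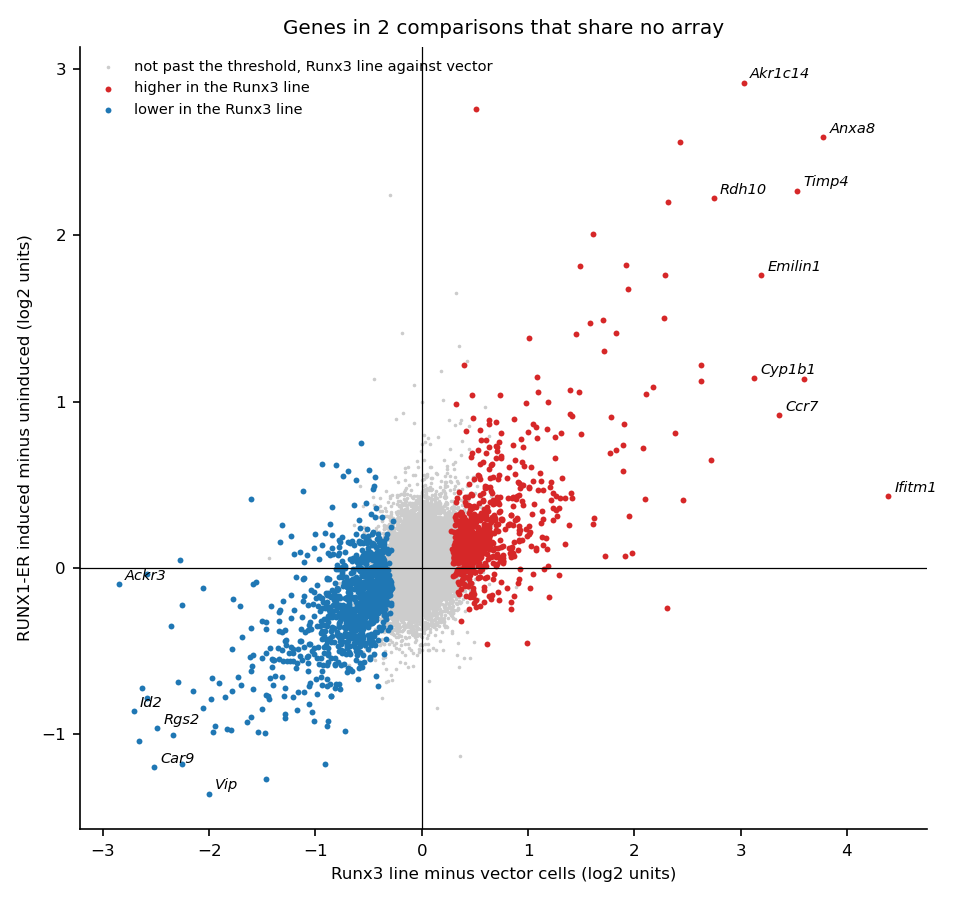
Log2 difference of the Runx3 line from vector cells (horizontal) against that of induced from uninduced RUNX1-ER cells (vertical) for 18193 genes, coloured by the call in the Runx3 comparison (red higher, blue lower, grey not called). Akr1c14 and Anxa8 lie far out on both axes, while Ackr3 lies at −2.85 on the horizontal axis and −0.10 on the vertical.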

How the data were processed

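RNA of 15 samples in 8 groups was measured on Affymetrix arrays. According to the labels' protocols, the authors scanned with GCOS and computed RMA values with the Bioconductor module affy; no versions were stated there. Judged by their range, the deposited values are log2 expression, and RMA shrinks differences between dim probe sets.

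Of 45101 probe sets, 34958 carried 1 gene symbol in the platform annotation, and each of 18193 genes was represented by its brightest probe set, manufacturer's controls left out. Groups were compared with limma 3.58.1 in R 4.3.3 (lmFit and eBayes, a coefficient for each group, all 15 arrays, 7 residual and 5.65 prior degrees of freedom), and two-sided p-values were adjusted by Benjamini-Hochberg. Errors are SEs of that model, and with 2 arrays in most groups it is their number that bounds the precision. In a simulated Runx3 comparison over 18193 genes the test found 25 of 50 genes shifted by 0.5 log2 units and 49 of 50 shifted by 1, with 11 calls among 17993 genes left alone.

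Named genes are the 20 largest rises and the 20 largest falls called against both vector groups with no overlap of arrays (predicted and unnamed genes skipped), the 10 each way furthest from vector and both other lines, up to 6 called members of each of 46 lists, defining markers, Runx genes and Cbfb. A few others, such as uncalled list members, were named after their values were seen. The members and lists were chosen with earlier results of these data known. Promoters are RefSeq's (GRCm38.p6), found for 14452 genes. Alternatives were the control group, the samples fitted, the probe-set rule, a filter at 5 log2 units, a replicate block, an intensity trend, re-centring and leaving out each array.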

Additional observations from a re-analysis of the deposited data

Results flagged for a closer look

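In 9 of the genes chosen for naming the Runx3 line and another line differed from vector cells in opposite directions, each past the threshold, and the lines also differed when compared directly with limma. Both contrasts use the same vector arrays, so the direct comparison is the test of each difference.

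Of the stress genes under ATF4, 3 had this pattern. Trib3 was lower than in the Runx1 line by a log2 difference of −2.13 (adjusted p = 3.35e-06), with −1.10 against vector cells in the Runx3 line and 1.03 in the Runx1 line. Chac1, a glutathione-degrading enzyme, differed by −2.69 (adjusted p = 1.60e-05), from −0.85 and 1.84. Ddit3, the transcription factor CHOP, differed by −1.42 (adjusted p = 0.000113), from −0.68 and 0.74. The Runx3 calls of Chac1 and Ddit3 were each lost when any of 3 arrays was left out, where the adjusted p rose to at most 0.327 and 0.122.

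Signalling genes with the same pattern were Hbegf, a ligand of the EGF receptor, at −1.59 (adjusted p = 3.29e-05), and the adenylyl cyclase gene Adcy7 at −1.32 (adjusted p = 6.30e-06). The repressor gene Snai2 differed by −1.44 (adjusted p = 3.25e-05). In the other direction were Ptger4, the EP4 receptor, at 1.94 (adjusted p = 2.34e-05), and Tcf7l1, a transcription factor of the Wnt pathway, at 0.81 (adjusted p = 6.42e-05). The Tcf7l1 change against vector cells, 0.32, was not called when any of the 4 arrays was left out.

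Mgp, an inhibitor of calcification, was higher in the Runx3 line than in vector cells by 0.73 and lower in both other lines, by −0.60 and −0.68. The direct differences were 1.34 from Runx1 (adjusted p = 3.81e-05) and 1.41 from Runx2 (adjusted p = 8.67e-05).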

How the results depend on the processing

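When each array was left out in turn the totals were 936 to 1206 against vector, 1281 to 1793 against vector with 4-OHT, 641 to 802 against the Runx1 line and 251 to 448 against the Runx2 line. Fitting only the groups compared gave 709 calls against Runx1, 86 against Runx2 and 942 against vector with 4-OHT. Fewer arrays entered those fits. Against vector, the remaining alternatives gave 1278 to 2341 calls. The 300-base window moved 1 promoter share.

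Of 254 named genes, 230 were called and 176 of these kept the call whichever array was left out. The other alternatives left 0 to 22 of the named genes below the threshold that had passed it, and none turned direction. Recomputed counts of calls in the 46 lists stayed within 1.5 times the reported count in 441 cases and left that range in 64. A replicate block gave 1668 calls against vector, 2008 against vector with 4-OHT, 1129 against Runx1 and 601 against Runx2. Same-numbered Runx3 and vector arrays deviated together with r = 0.035 across genes. That value alone does not show whether same-numbered samples were handled together. Dim probe sets limit the sizes of Ifitm1, Ccr7 and Cdh1, whose vector readings lie near or under the array median.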

Other observations

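In 3 genes the replicate arrays of the Runx3 line or of vector cells lay more than 1 log2 unit apart. Nova1, which encodes a neuronal splicing factor, read 4.77 and 3.73 in the Runx3 line, H1f2, a linker histone gene, 7.34 and 6.28 in vector cells, and Nr4a1 10.39 and 8.71 in vector cells. Further genes outside the rule for naming, Acsl3 and Sned1, were lower in the Runx3 line than in vector cells, by −0.81 and −0.50, and higher in the Runx2 line, by 0.50 and 0.58. The Runx3 call of Sned1 was lost with any array left out. Tmsb4x and Gpr149, the latter dim in vector cells (mean 3.52), changed by −0.97 and −0.41 in the Runx3 line and by 0.60 and 0.71 in the Runx1 line. Gpd1l changed by 0.72 in the Runx3 line and by −0.49 in the Runx1 line.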
